A study of Homo sapiens with 6 samples.

Results

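The 38 genes described here encode laminin chains, the linkers of basement membranes (nidogens, perlecan, agrin), the fibrillins and their latent TGF-beta binding proteins, the fibulins, and a set of matrix glycoproteins and proteoglycans. They were taken by symbol from a list, and all 38 were found among the 34869 genes of the deposited table. RNA came from NCI-H295R, a steroid-producing line grown out of a human adrenocortical carcinoma. Cells carried a lentiviral short hairpin RNA (shRNA) against TPD52, a gene of vesicle traffic and lipid storage, in 3 shTPD52 libraries, or a non-targeting shRNA in 3 shCtrl libraries. Both groups were grown in the same serum medium with insulin, transferrin and selenium, and both were transduced with lentivirus. No other treatment is named. The labels do not say how many hairpin sequences were used, or whether replicates were grown separately, so the spread behind each p-value is that between these libraries and may be technical. In bulk RNA, fewer cells that express a gene and less RNA per cell cannot be told apart.

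Laminins are secreted heterotrimers of an alpha, a beta and a gamma chain that polymerise into the sheet under epithelia and around capillaries. Nidogens and the heparan sulfate proteoglycans perlecan and agrin tie this sheet to type IV collagen and to cell surface receptors. Fibrillins form the microfibrils of the interstitial matrix, which hold latent TGF-beta through LTBP proteins and carry elastic fibres together with fibulins. In the adrenal cortex, cords of steroid-producing cells rest on a laminin-rich basement membrane that separates them from a dense capillary bed.

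In shTPD52 cells, 4 of 7 tested laminin chains and 3 of 4 linkers were called lower, as were 12.7% of all tested genes. After correction for gene length and GC content 2 laminin chains and 3 linkers remained lower, where 10.0% of all tested genes were called lower. HSPG2 (perlecan), NID1 and NID2 (nidogens) and LAMC1 (laminin gamma 1) stood between 0.336 and 0.529 times their shCtrl mean. FBN2 (fibrillin 2) stood at 0.408 times and FN1 (fibronectin) at 0.397 times the shCtrl mean. LAMB1, LAMB2 and LTBP4 fell by less, LAMA2, the main alpha chain, and AGRN (agrin) did not pass, and SPARC, the most abundant of the 38, did not pass either and had the same mean in both groups. Several of the genes that fell most are long, and long genes in general were lower in these shTPD52 libraries.

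The study's target was checked before the matrix genes. TPD52 stood at 0.630, 0.635 and 0.655 FPKM in shTPD52 replicates 1, 2 and 3, against 1.42, 1.18 and 1.29 FPKM in shCtrl replicates 1, 2 and 3 (FPKM are reads scaled to the length of the gene and the size of the library). It fell by 0.65 on the log2 scale (limma with Benjamini-Hochberg adjustment, adjusted p = 0.0218), and it still passed without shTPD52 replicate 2 but not without any other library. Library totals worked back from the FPKM ran from 29544341 to 38396624 reads in shTPD52 and from 30582681 to 36885546 reads in shCtrl. Reads of mitochondrially encoded genes made up 22.3%, 19.5% and 24.2% of shTPD52 replicates 1, 2 and 3, against 18.4%, 17.4% and 17.6% of shCtrl replicates 1, 2 and 3. On the first principal component, with 61% of the variance, shTPD52 replicate 2 lay at 0.291, shTPD52 replicates 1 and 3 at 27.3 and 35.3, and the shCtrl libraries between -24.1 and -16.4. Of 10 adrenocortical marker genes, 9 had a mean of at least 1 FPKM, among them NR5A1 at 69.2 to 78.2 FPKM in shTPD52 and 70.9 to 73.2 FPKM in shCtrl. Their sum ran from 460 to 464 FPKM in shTPD52 and from 397 to 421 FPKM in shCtrl. Limma called 4 of the 9 higher and 0 lower, where it called 5.63% of all tested genes higher. Among these 4, FATE1 rose by 2.2, MC2R (the ACTH receptor) by 1.47 and FDX1 by 0.41 on the log2 scale. CYP17A1 went the other way without overlap, at 34.7 to 44.9 FPKM in shTPD52 and 46.8 to 52.5 FPKM in shCtrl. A limma-voom fit on reads worked back from the FPKM called 5 of the 9 higher and 1 lower. Of 10 fibroblast markers 5 were under 0.1 FPKM in every library (COL1A2, LUM, PDGFRA, PDGFRB and POSTN), and their sum ran from 22.5 to 29.1 FPKM in shTPD52 and from 27.7 to 28.8 FPKM in shCtrl, most of it COL3A1. Of 8 endothelial markers, VWF, CDH5 and TIE1 were under 0.1 FPKM throughout, and the sum, most of it EGFL7, ran from 14.7 to 20.5 FPKM in shTPD52 and from 15.7 to 17.5 FPKM in shCtrl. Of 7 macrophage markers 6 were in the table and none had a mean of 1 FPKM, and the sum ran from 0.442 to 1.15 FPKM in shTPD52 and from 0.252 to 0.517 FPKM in shCtrl. Of 7 chromaffin cell markers 4 were in the table, and the list was carried by CHGB, a secretory granule gene, with sums of 35.1 to 38.5 FPKM in shTPD52 and 44.8 to 49.0 FPKM in shCtrl. The part of these marker levels in the falls of the matrix genes was not tested.

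The promoters of the 5 members with the largest falls are shown, with that of SPARC, the most abundant member. SPARC did not pass, but as a single gene it does not stand for the other members that did not pass. Each sequence is the 250 bases before the gene start in RefSeq (GRCh38.p14), written 5′ to 3′ on the gene's strand. Capitals mark the GC box GGGCGG, read on either strand (CCGCCC on the other), and in FN1 also the cyclic AMP response element TGACGTCA. The regions are chr1:21937311-21937560 on the minus strand for HSPG2, chr5:128538246-128538495 on the minus strand for FBN2, chr2:215436069-215436318 on the minus strand for FN1, chr1:236065091-236065340 on the minus strand for NID1, chr1:183023170-183023419 on the plus strand for LAMC1 and chr5:151686916-151687165 on the minus strand for SPARC.
HSPG2: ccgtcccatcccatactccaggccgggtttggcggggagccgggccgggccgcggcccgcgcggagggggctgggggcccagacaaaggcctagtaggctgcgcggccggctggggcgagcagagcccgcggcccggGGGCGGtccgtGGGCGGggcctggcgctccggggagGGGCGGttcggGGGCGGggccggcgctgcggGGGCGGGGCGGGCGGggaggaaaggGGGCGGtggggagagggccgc
FBN2: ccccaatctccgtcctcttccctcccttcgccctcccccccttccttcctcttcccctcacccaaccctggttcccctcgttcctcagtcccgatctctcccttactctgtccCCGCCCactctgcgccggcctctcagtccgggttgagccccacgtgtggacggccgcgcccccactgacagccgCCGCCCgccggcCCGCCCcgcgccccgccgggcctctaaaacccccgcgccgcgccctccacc
FN1: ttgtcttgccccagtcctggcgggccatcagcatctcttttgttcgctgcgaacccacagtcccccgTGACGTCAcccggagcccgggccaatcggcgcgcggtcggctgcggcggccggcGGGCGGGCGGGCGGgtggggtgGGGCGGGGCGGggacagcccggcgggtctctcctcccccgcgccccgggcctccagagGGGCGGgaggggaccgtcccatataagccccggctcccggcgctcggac
NID1: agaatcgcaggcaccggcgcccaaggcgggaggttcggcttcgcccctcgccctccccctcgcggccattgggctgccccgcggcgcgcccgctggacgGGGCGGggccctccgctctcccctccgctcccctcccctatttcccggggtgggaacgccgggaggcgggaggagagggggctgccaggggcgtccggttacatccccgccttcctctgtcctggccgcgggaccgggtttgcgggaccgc
LAMC1: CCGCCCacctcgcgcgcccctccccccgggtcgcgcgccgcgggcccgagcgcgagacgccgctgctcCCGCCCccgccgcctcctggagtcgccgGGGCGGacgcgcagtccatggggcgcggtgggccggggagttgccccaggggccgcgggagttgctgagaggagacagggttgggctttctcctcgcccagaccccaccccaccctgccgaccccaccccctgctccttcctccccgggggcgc
SPARC: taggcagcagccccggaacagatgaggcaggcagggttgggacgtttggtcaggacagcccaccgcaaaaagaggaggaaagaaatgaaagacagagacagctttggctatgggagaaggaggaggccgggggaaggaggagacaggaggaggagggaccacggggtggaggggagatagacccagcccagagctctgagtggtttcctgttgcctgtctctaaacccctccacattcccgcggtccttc

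HSPG2 held 8 GC boxes, FN1 6, FBN2 3, LAMC1 3, NID1 1 and SPARC 0, where overlapping boxes were each counted. The response element of FN1 began 183 bases before the start. GC content was 82.8% in HSPG2, 79.6% in LAMC1, 76.4% in FN1, 76.4% in NID1, 72.8% in FBN2 and 59.2% in SPARC. Promoters were matched for 32 of the 38 members. Of the 22 tested members with a promoter, 19 held a GC box in this window, against 42.6% of 35114 promoters: 12 of the 13 that fell and 7 of the 9 that did not pass. SPARC, with none, was thus not typical of the members that did not pass. The 35114 promoters were not limited to genes tested here, and the share among tested genes was not computed. The differences from that background, here and for the motifs below, can therefore not be read as a trait of the members. TGACGTCA was in 2 of the 22, both among those that fell, against 1.65% of all promoters. The TATA box TATAAA was in 1 of the 22 (10.7% of all promoters), the AP-1 site TGANTCA in 1 (6.57%), the nuclear receptor core site AGGTCA in 2 (12.1%) and the TEAD site GGAATG in 3 (11.9%), each read on both strands. RefSeq and GENCODE place some starts apart, so that the windows of FBN2, NID1, FN1 and SPARC lie partly or wholly inside the GENCODE genes given with their values. A match describes these letters only.

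Genes that averaged 1 FPKM or more across the 6 libraries entered the test, 24 of the 38 members and 12782 genes in all. Fold changes are differences of log2(FPKM + 0.5), shTPD52 minus shCtrl, a scale that understates the change of low genes. Of the 24 members tested, 13 fell and 11 did not pass, where limma called 12.7% of all tested genes lower and 5.63% higher. In this fit limma called 0 members higher, with 0 at an unadjusted p under 0.05 and 0 by limma-voom on the recovered reads. After correction for length and GC content 1 member, FBLN1, was called higher, as were 10.7% of all tested genes. Median-ratio scaling and the fit without shTPD52 replicate 2 each had 1 member higher at an unadjusted p under 0.05 and called 0. The median log2 fold change was -0.44 over the tested members and -0.11 over all tested genes. Scaling by median ratios moved these medians to -0.34 and 0.00 and left 11 members lower, where it called 8.12% of all genes lower and 8.47% higher. The 3 shTPD52 libraries lay below the 3 shCtrl libraries without overlap for 20 of the 24 members, as they did for 28.3% of all tested genes. Calls depended on which libraries entered. Without shCtrl replicate 1, 2 or 3, limma called 2, 4 and 0 members lower, and without shTPD52 replicate 1, 2 or 3 it called 0, 17 and 8. Of all 12782 tested genes it called 226, 450 and 87 in either direction without shCtrl replicate 1, 2 or 3. Without shTPD52 replicate 1, 2 or 3 it called 159, 5825 and 897 of them. Each of the 13 members kept its call in 1 to 4 of these 6 fits. Where the count was 0, 14 members were lower at an unadjusted p under 0.05. The like count over all genes is not given for those fits, so these 14 cannot be set against the rest of the table. With all 6 libraries, 17 members and 3420 of the 12782 genes were lower at an unadjusted p under 0.05 by limma. Limma-voom on all 6 libraries called 16 members lower, and 2124 of the 12782 genes.

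**Figure D1:**
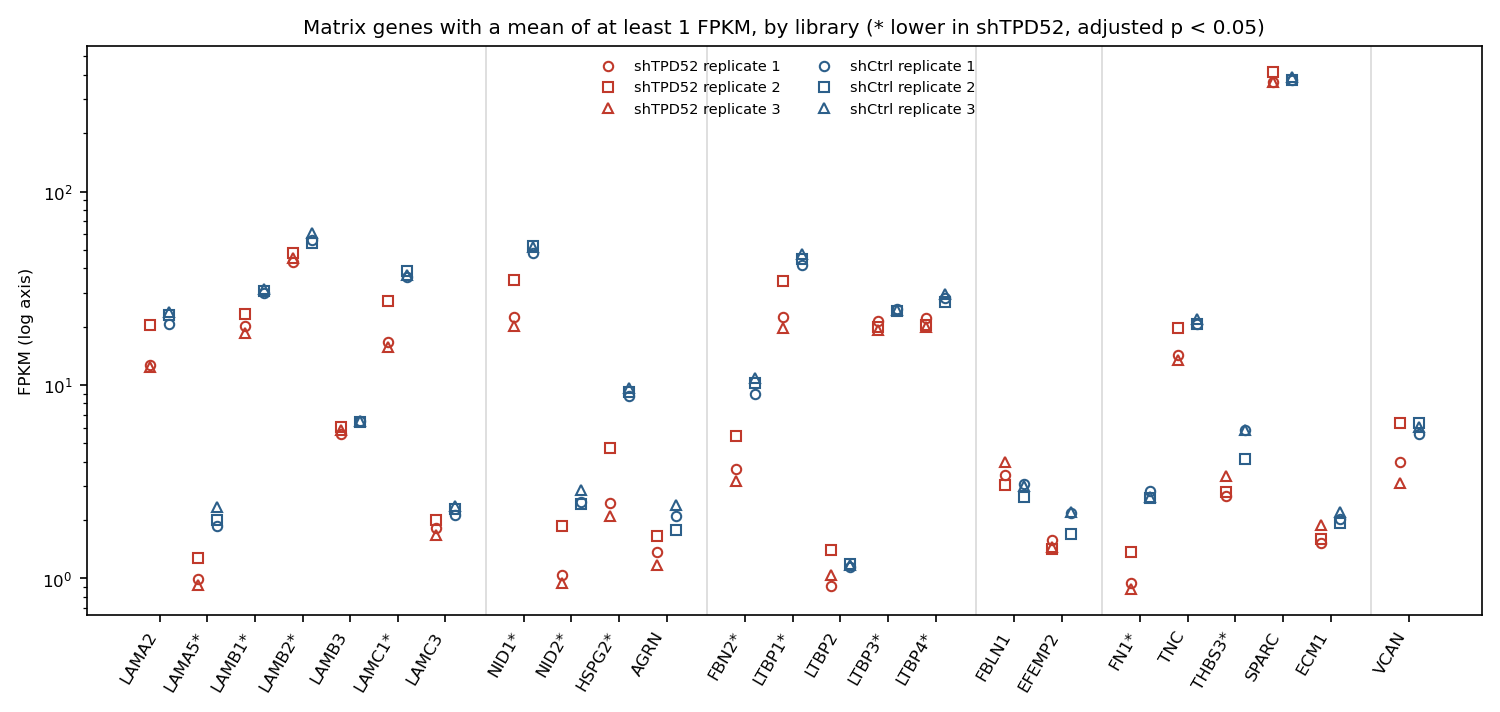
FPKM (log axis) of the 24 tested members in each library, shTPD52 in red left of shCtrl in blue, with a marker shape for each replicate and grey lines between the role groups. An asterisk marks the 13 genes that were lower in shTPD52, and the square of shTPD52 replicate 2 lies above the other shTPD52 markers for 18 of the 24 genes.

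Of 10 laminin chains 7 were tested, 4 fell and 3 did not pass, where 12.7% of all tested genes were called lower. All 7 lay lower in every shTPD52 library than in every shCtrl library (28.3% of all tested genes did). LAMC1 (ENSG00000135862, GRCh38 chromosome 1, 183023460 to 183145592, plus strand) encodes gamma 1, the gamma chain of most laminins. It stood at 16.7, 27.1 and 15.6 FPKM in shTPD52 replicates 1, 2 and 3, against 36.2, 39.0 and 37.2 FPKM in shCtrl replicates 1, 2 and 3. The shTPD52 libraries did not reach the shCtrl range, and replicate 2 lay nearest to it. LAMC1 averaged 19.8 ± 6.36 FPKM in shTPD52 and 37.5 ± 1.41 FPKM in shCtrl (SD, n = 3 each), and it fell by 0.95 log2 units (SE 0.19, 95% interval -1.38 to -0.51, adjusted p = 0.0195 by limma). Its values rest on 4170 to 8361 reads in shTPD52 and 10073 to 11597 reads in shCtrl.

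LAMB1 (ENSG00000091136, chromosome 7, 107923799 to 108003255, minus strand) encodes the beta 1 chain. It stood at 20.1, 23.1 and 18.6 FPKM in shTPD52 replicates 1 to 3, against 30.0, 30.4 and 31.4 FPKM in shCtrl replicates 1 to 3, a narrow control range that no shTPD52 library reached. It fell by 0.56 log2 units (SE 0.093, adjusted p = 0.013 by limma). LAMB2 (ENSG00000172037, chromosome 3, 49121114 to 49133118, minus strand) encodes beta 2, the chain known from the kidney filter and the neuromuscular junction. It stood at 43.2, 47.9 and 45.1 FPKM in shTPD52 replicates 1 to 3, against 55.9, 54.3 and 61.3 FPKM in shCtrl replicates 1 to 3, and was the laminin gene with the highest FPKM as deposited. It fell by 0.33 log2 units (SE 0.081, adjusted p = 0.0326 by limma), which no longer passed under median-ratio scaling (-0.21) or after correction for length and GC content (-0.06).

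LAMA2 (ENSG00000196569, chromosome 6, 128883141 to 129516569, plus strand) encodes alpha 2, the chain of muscle and nerve basement membranes, and was the main alpha chain of these cells. It stood at 12.6, 20.5 and 12.4 FPKM in shTPD52 replicates 1 to 3, against 20.6, 23.0 and 23.7 FPKM in shCtrl replicates 1 to 3. Replicate 2 of shTPD52 lay at the edge of the shCtrl range and the others well below it. LAMA2 had a log2 fold change of -0.59 (95% interval -1.01 to -0.16) and did not pass (limma adjusted p = 0.0605). LAMA5 (ENSG00000130702, chromosome 20, 62307955 to 62367312, minus strand), the alpha 5 chain of mature epithelial and vascular membranes, stood at 0.988, 1.27 and 0.917 FPKM in shTPD52 replicates 1 to 3, against 1.86, 2.0 and 2.34 FPKM in shCtrl replicates 1 to 3. It fell by 0.72 log2 units (SE 0.145, adjusted p = 0.02 by limma), with no overlap between the groups, but it no longer passed once length and GC content were corrected for (-0.27).

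LAMB3, a chain of the laminin that anchors epidermis, averaged 5.78 ± 0.235 FPKM in shTPD52 and 6.48 ± 0.0277 FPKM in shCtrl, and LAMC3, a gamma chain of more restricted expression, averaged 1.83 ± 0.159 FPKM in shTPD52 and 2.25 ± 0.133 FPKM in shCtrl (SD, n = 3 each). Neither passed. The log2 fold change was -0.15 for LAMB3 (95% interval -0.35 to 0.04) and -0.25 for LAMC3 (95% interval -0.51 to 0.02), and both signs turned after the length and GC correction (0.0029 for LAMB3 and 0.098 for LAMC3). LAMA1, LAMA3 and LAMA4 lay under the filter, at 0.0242 to 0.394 FPKM in shTPD52 and 0.0136 to 0.408 FPKM in shCtrl.

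As a share of alpha-chain FPKM, LAMA2 made up 91.1% ± 0.979 in shTPD52 and 90.0% ± 0.516 in shCtrl, and LAMA5 made up 6.50% ± 0.711 in shTPD52 and 8.28% ± 0.5 in shCtrl (SD, n = 3 each). LAMC1 made up 91.2% ± 1.67 of gamma-chain FPKM in shTPD52 and 94.3% ± 0.274 in shCtrl (n = 3 each). The beta shares depended on the length used. The FPKM of LAMB1 imply a length of 18592 bp, 2.28 times its exon length of 8140 bp in GENCODE release 29. On the authors' length LAMB1 held 28.7% ± 1.68 of beta-chain FPKM in shTPD52 and 32.5% ± 0.848 in shCtrl, below LAMB2 with 63.3% ± 1.42 in shTPD52 and 60.6% ± 1.12 in shCtrl. On GENCODE 29 lengths LAMB1 held 47.8% ± 2.07 in shTPD52 and 52.4% ± 0.965 in shCtrl, and LAMB2 held 46.3% ± 1.79 in shTPD52 and 42.8% ± 1.12 in shCtrl. The level of LAMB1 would then be 47.1 FPKM in shTPD52 and 69.9 FPKM in shCtrl. The order of the beta chains is therefore uncertain. The uncorrected ratio between the groups is the same on either length. Reads were not counted again on the shorter length, and the length and GC correction of LAMB1 used the implied length.

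Of the 4 linkers of the basement membrane, all tested, 3 fell and AGRN did not pass, where 12.7% of all tested genes were called lower. HSPG2 (ENSG00000142798, chromosome 1, 21822245 to 21937297, minus strand) encodes perlecan, a large heparan sulfate proteoglycan that binds growth factors. It stood at 2.44, 4.69 and 2.10 FPKM in shTPD52 replicates 1, 2 and 3, against 8.72, 9.15 and 9.64 FPKM in shCtrl replicates 1, 2 and 3. Every shTPD52 library lay below every shCtrl library, and shTPD52 replicate 2 lay nearest to shCtrl. HSPG2 averaged 3.08 ± 1.41 FPKM in shTPD52 and 9.17 ± 0.459 FPKM in shCtrl (SD, n = 3 each), the largest fall among the tested members, by 1.5 log2 units (SE 0.24, 95% interval -2.05 to -0.96, adjusted p = 0.0117 by limma). It rests on 1307 to 3101 reads in shTPD52 and 5070 to 6441 reads in shCtrl.

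NID1 (ENSG00000116962, chromosome 1, 235975830 to 236065162, minus strand) encodes nidogen 1, which bridges the laminin gamma 1 chain and type IV collagen. It stood at 22.4, 34.8 and 20.2 FPKM in shTPD52 replicates 1, 2 and 3, against 48.1, 52.0 and 51.9 FPKM in shCtrl replicates 1, 2 and 3. NID1 fell by 1.0 log2 units (SE 0.18, 95% interval -1.42 to -0.58, adjusted p = 0.0162 by limma), with no overlap between the groups. NID2 (ENSG00000087303, chromosome 14, 52004803 to 52069228, minus strand), its relative, stood lower in level at 1.03, 1.85 and 0.945 FPKM in shTPD52 replicates 1 to 3, against 2.46, 2.42 and 2.85 FPKM in shCtrl replicates 1 to 3. It fell by 0.83 log2 units (SE 0.20, adjusted p = 0.0294 by limma). RTRAF, a gene on the other strand, covers 30.0% of the NID2 exon bases and was higher in level in shTPD52 (30.0 to 36.0 FPKM) than in shCtrl (23.3 to 24.1 FPKM), the opposite direction to NID2. The strand setting of the counting is not given in the sources used here, so reads of the shared bases cannot be assigned to either gene. AGRN, which encodes agrin, a proteoglycan that clusters receptors at nerve-muscle contacts, averaged 1.39 ± 0.236 FPKM in shTPD52 and 2.08 ± 0.307 FPKM in shCtrl (n = 3 each). Its log2 fold change of -0.45 (95% interval -0.80 to -0.11) missed the threshold (adjusted p = 0.0692 by limma).

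Of 7 fibrillins and latent TGF-beta binding proteins 5 were tested, 4 fell and LTBP2 did not pass, where 12.7% of all tested genes were called lower. After the length and GC correction 2 of the 5 were called lower, as were 10.0% of all tested genes. FBN2 (ENSG00000138829, chromosome 5, 128257909 to 128659185, minus strand) encodes fibrillin 2, the fibrillin best known from developing tissue. It stood at 3.65, 5.46 and 3.18 FPKM in shTPD52 replicates 1, 2 and 3, against 8.95, 10.2 and 10.9 FPKM in shCtrl replicates 1, 2 and 3, with a wide gap between the groups. FBN2 fell by 1.23 log2 units (SE 0.18, 95% interval -1.64 to -0.81, adjusted p = 0.0108 by limma). FBN1, the main fibrillin of adult connective tissue, lay just under the filter at 0.526, 0.916 and 0.436 FPKM in shTPD52 replicates 1 to 3, against 0.978, 1.12 and 1.29 FPKM in shCtrl replicates 1 to 3. Its groups did not overlap, and in the fit without a filter it did not pass (log2 fold change -0.55, adjusted p = 0.211 by limma). FBN3 stayed between 0.0209 and 0.131 FPKM in all libraries.

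LTBP1 (ENSG00000049323, chromosome 2, 32946972 to 33399509, plus strand) encodes the protein that carries latent TGF-beta into the matrix. It stood at 22.5, 34.3 and 19.7 FPKM in shTPD52 replicates 1, 2 and 3, against 41.7, 44.6 and 47.3 FPKM in shCtrl replicates 1, 2 and 3. LTBP1 fell by 0.83 log2 units (SE 0.18, 95% interval -1.26 to -0.40, adjusted p = 0.025 by limma), with no overlap. LTBP4 (ENSG00000090006, chromosome 19, 40592883 to 40629818, plus strand), which also guides elastic fibre assembly, stood at 22.2, 20.4 and 19.9 FPKM in shTPD52 replicates 1 to 3, against 28.2, 26.8 and 29.5 FPKM in shCtrl replicates 1 to 3. It fell by 0.43 log2 units (SE 0.080, adjusted p = 0.0171 by limma), and here shTPD52 replicate 2 was not the highest of its group. LTBP3 (ENSG00000168056, chromosome 11, 65538805 to 65558930, minus strand), known for its part in bone and tooth growth, stood at 21.3, 19.9 and 19.3 FPKM in shTPD52 replicates 1 to 3, against 24.7, 24.1 and 24.3 FPKM in shCtrl replicates 1 to 3. It fell by 0.27 log2 units (SE 0.075, adjusted p = 0.0449 by limma). Corrected for length and GC content, LTBP4 (-0.09) and LTBP3 (0.13, a turned sign) no longer passed, and LTBP3 did not pass under median-ratio scaling either (-0.15). LTBP2 averaged 1.12 ± 0.253 FPKM in shTPD52 and 1.16 ± 0.0188 FPKM in shCtrl (n = 3 each), with a log2 fold change of -0.05 (95% interval -0.40 to 0.31) whose sign turned with median-ratio scaling (0.036).

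Of 6 fibulin and emilin genes 2 were tested and neither passed (limma, with 1 lower at an unadjusted p under 0.05 and 0 called by limma-voom). FBLN1, a calcium-binding partner of laminin and fibronectin, stood at 3.42, 3.03 and 3.99 FPKM in shTPD52 replicates 1 to 3, against 3.06, 2.62 and 3.0 FPKM in shCtrl replicates 1 to 3, and the groups overlapped. Its log2 fold change was 0.23 (95% interval -0.06 to 0.51), and after the length and GC correction it was 0.49 and passed as higher (limma adjusted p = 0.04; 0.0342 to 0.493 over 15 alternatives). EFEMP2 (fibulin 4), needed for elastin crosslinking, averaged 1.47 ± 0.0817 FPKM in shTPD52 and 2.02 ± 0.294 FPKM in shCtrl (n = 3 each), and its log2 fold change was -0.34 (adjusted p = 0.1 by limma). FBLN2, FBLN5, EFEMP1 and EMILIN1 lay under the filter, at 0.0341 to 0.6 FPKM in shTPD52 and 0.0671 to 0.366 FPKM in shCtrl. FBLN2 (fibulin 2) lay lower in level without overlap, at 0.0341 to 0.0562 FPKM and 6 to 8 reads in shTPD52 and 0.0814 to 0.260 FPKM and 12 to 43 reads in shCtrl. EFEMP1 (fibulin 3) lay higher in level without overlap, at 0.290, 0.394 and 0.322 FPKM in shTPD52 replicates 1 to 3, against 0.177, 0.132 and 0.205 FPKM in shCtrl replicates 1 to 3. These rest on 34 to 57 reads in shTPD52 and 16 to 30 reads in shCtrl, and without a filter neither passed (limma adjusted p = 0.239 for FBLN2 and 0.188 for EFEMP1).

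Of 9 genes of fibronectin and other adhesive or matricellular glycoproteins 5 were tested, FN1 and THBS3 fell and 3 did not pass. Over all tested genes 12.7% were called lower. FN1 (ENSG00000115414, chromosome 2, 215360440 to 215436172, minus strand) encodes fibronectin, which integrins assemble into fibrils. It stood at 0.938, 1.37 and 0.879 FPKM in shTPD52 replicates 1, 2 and 3, against 2.81, 2.60 and 2.62 FPKM in shCtrl replicates 1, 2 and 3. FN1 fell by 1.04 log2 units (SE 0.15, 95% interval -1.38 to -0.69, adjusted p = 0.0103 by limma), with 477 to 863 reads in shTPD52 and 1370 to 1662 reads in shCtrl. THBS3 (ENSG00000169231, chromosome 1, 155195588 to 155209051, minus strand), a pentameric thrombospondin, stood at 2.67, 2.79 and 3.36 FPKM in shTPD52 replicates 1 to 3, against 5.86, 4.12 and 5.81 FPKM in shCtrl replicates 1 to 3. It fell by 0.73 log2 units (SE 0.15, adjusted p = 0.0214 by limma). An antisense RNA on the other strand covers 22.2% of the THBS3 exon bases and was itself at 0.578 to 0.834 FPKM in shTPD52 and 1.19 to 1.40 FPKM in shCtrl, so the reads of the pair cannot be told apart.

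SPARC (ENSG00000113140, chromosome 5, 151661096 to 151687165, minus strand) encodes osteonectin, a collagen-binding protein. It stood at 369, 414 and 367 FPKM in shTPD52 replicates 1 to 3, against 380, 378 and 390 FPKM in shCtrl replicates 1 to 3, and the groups overlapped. With at least 50570 reads in each library it was the most precisely counted member, and its log2 fold change was 0.001 (95% interval -0.18 to 0.18, limma adjusted p = 0.995). TNC (tenascin C), an anti-adhesive protein of remodelled tissue, stood at 14.3, 19.6 and 13.5 FPKM in shTPD52 replicates 1 to 3, against 20.6, 20.6 and 21.8 FPKM in shCtrl replicates 1 to 3. Its log2 fold change of -0.41 (95% interval -0.73 to -0.10) missed the threshold (adjusted p = 0.0684 by limma). ECM1 averaged 1.66 ± 0.19 FPKM in shTPD52 and 2.05 ± 0.141 FPKM in shCtrl, and VCAN, the large proteoglycan versican, averaged 4.47 ± 1.68 FPKM in shTPD52 and 5.98 ± 0.418 FPKM in shCtrl (n = 3 each). Neither passed (log2 fold changes -0.24 and -0.43). For VCAN, shTPD52 replicate 2 stood at 6.35 FPKM, inside the shCtrl range of 5.53 to 6.36 FPKM, while replicates 1 and 3 stood at 3.97 and 3.10 FPKM.

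THBS1, THBS2, TNXB, MATN2 and the small proteoglycan BGN lay under the filter, at 0.0222 to 0.631 FPKM in shTPD52 and 0.05 to 0.643 FPKM in shCtrl. TNXB shares 298 exon bases with CYP21A2 on the other strand, a steroid enzyme gene at 68.7 to 84.5 FPKM in shTPD52 and 59.5 to 61.4 FPKM in shCtrl, and has a near-identical partial copy, so its level is uncertain. In all, 14 members had a mean under 1 FPKM, from 0.0359 to 0.878 FPKM, and none passed in the fit without a filter.

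**Figure D2:**
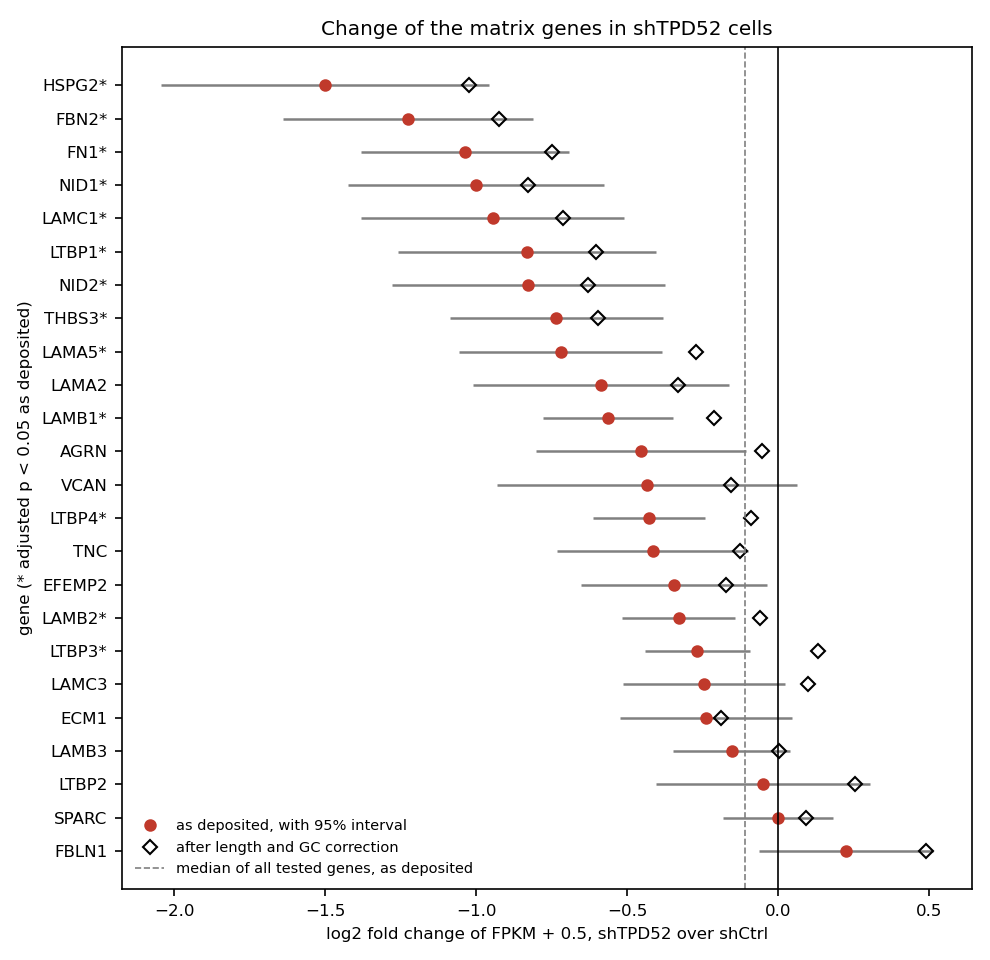
Log2 fold change of FPKM + 0.5, shTPD52 over shCtrl, for the 24 tested members, as red points with 95% intervals, and the same after correction for length and GC content as open diamonds; the dashed line is the median of all tested genes at -0.11. HSPG2 at -1.5 and FBN2 at -1.23 stand lowest, SPARC stands at 0, and the diamonds lie to the right of the points for all 24 genes.

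The 3 shTPD52 libraries did not move alike. Relative to the mean of shCtrl, the median over the 24 tested members was -0.53, -0.33 and -0.62 on the log2 scale in shTPD52 replicates 1, 2 and 3. Over all tested genes the same medians were -0.10, -0.03 and -0.19. After the length and GC correction they were -0.21, -0.14 and -0.20 over the 24 members and 0.01, -0.002 and 0.01 over all tested genes. Uncorrected medians over the 13 members that fell, which were chosen as lower in these same libraries, were -0.97, -0.46 and -1.09. Replicate 2 was the highest of the shTPD52 libraries for 10 of the 13 members that fell, and for 75.1% of all genes called lower, so this order was shared with the rest of the table. Its mitochondrial read share was also the lowest of the shTPD52 libraries (19.5%), a measure whose part in these falls was not tested. Without replicate 2 all 13 calls held and LAMA2, AGRN, TNC and VCAN were called as well, where limma called 32.9% of all tested genes lower. HSPG2 then fell by 1.80 and LAMC1 by 1.19 on the log2 scale.

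**Figure D3:**
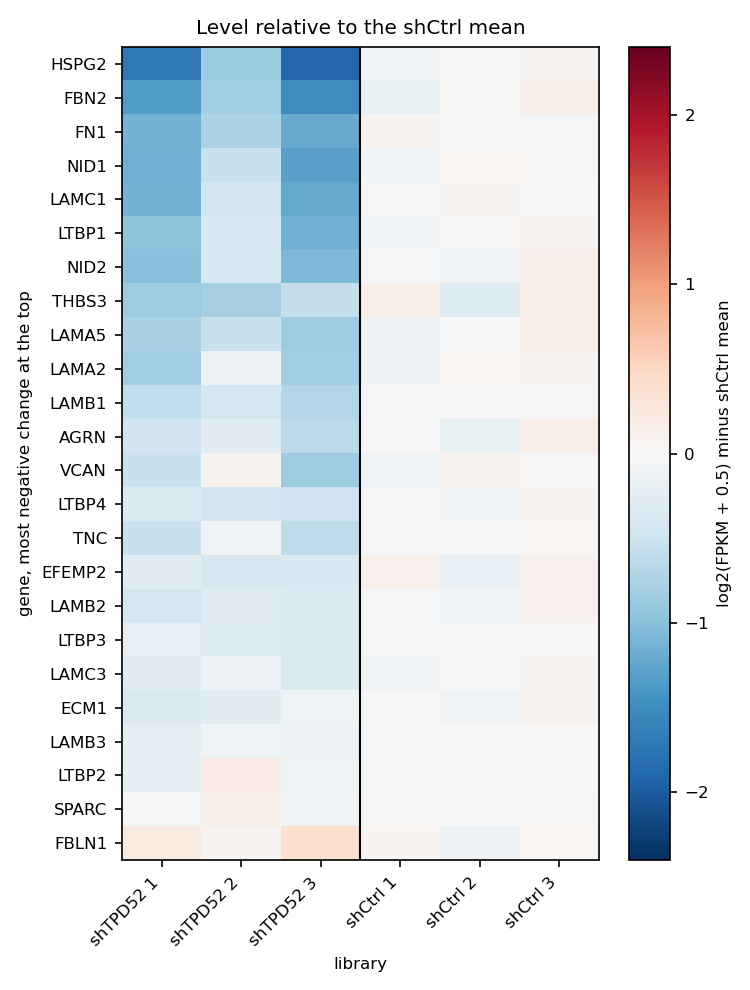
Difference of log2(FPKM + 0.5) from the shCtrl mean in each library (columns, shTPD52 on the left) for the 24 tested members (rows, most negative change at the top), blue for lower and red for higher. The column of shTPD52 replicate 2 is paler than those of replicates 1 and 3 for the members at the top.

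The members are long genes, with a median exon length of 8.69 kb behind the FPKM of the 24 tested, against 4.6 kb for all genes tested. Long genes were lower in shTPD52 in general. Over all tested genes the median log2 fold change was 0.09 under 2 kb, -0.12 between 4 and 6 kb, -0.25 between 8 and 12 kb and -0.29 from 12 kb on. Of the 832 genes of at least 12 kb, 18.4% were called lower and 0.721% higher. The 6 members in that range, LAMA5, LAMB1, HSPG2, FBN2, FN1 and VCAN, had a median of -0.88, and 5 of them fell. LAMB1 is in that range only by the length its FPKM imply. Its GENCODE 29 length of 8140 bp would leave 4 of 5 members lower there and put 4 of 9 in the range below, and its correction for length was not computed on that value. Between 8 and 12 kb the 8 members had a median of -0.42 and 3 fell, against 18.1% of all genes there. Between 4 and 6 kb, where 14.3% of genes were called lower, NID1 and THBS3 fell while LAMB3, EFEMP2 and SPARC did not pass. Across the 24 members the fold change had a Pearson r of -0.442 and a Spearman rho of -0.414 with log2 length, a description of genes measured in the same 6 libraries. Over all tested genes r was -0.241 and rho was -0.341.

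**Figure D4:**
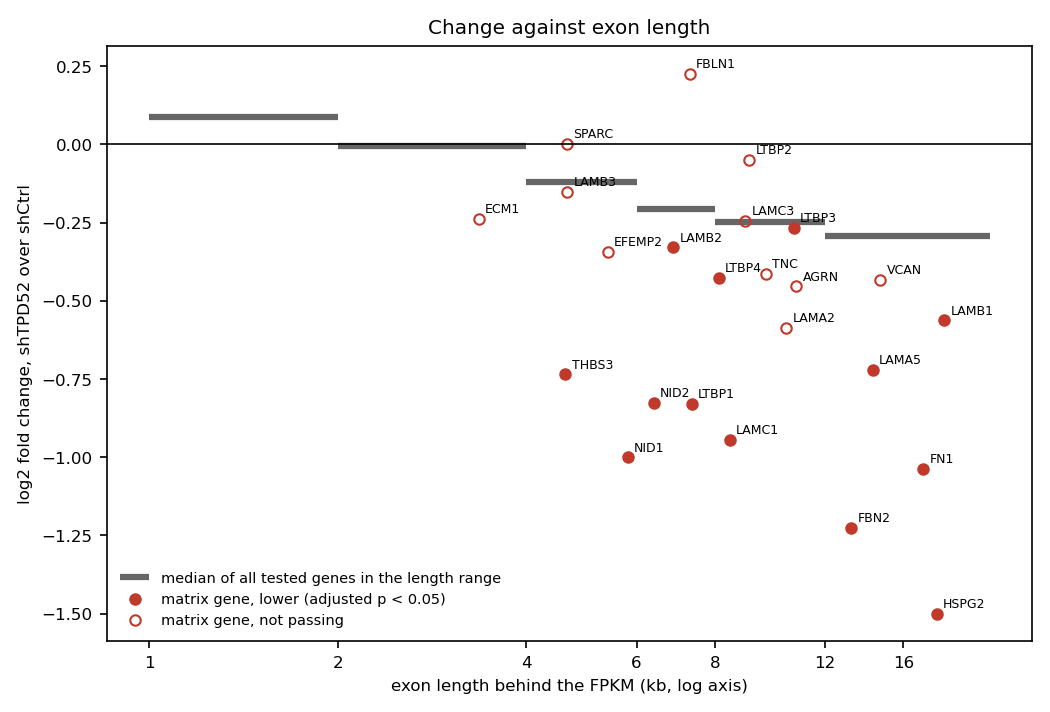
Log2 fold change, shTPD52 over shCtrl, against the exon length behind the FPKM (kb, log axis) for the 24 tested members, filled where the gene fell; grey bars are the medians of all tested genes in each length range. The bars step down from 0.09 to -0.29 with length, and HSPG2 at -1.5, FBN2 at -1.23 and NID1 at -1.0 lie well below the bars of their own ranges.

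Each library's trend on length and GC content was then removed, which brought the median of all tested genes to 0.005 and that of the tested members to -0.18. Of the 13 members that fell, 9 remained lower (HSPG2, FBN2, FN1, NID1, LAMC1, LTBP1, NID2, THBS3 and LAMB1), where 10.0% of all genes were called lower and 10.7% higher. The corrected log2 fold changes were -1.02 for HSPG2, -0.93 for FBN2, -0.83 for NID1, -0.75 for FN1 and -0.71 for LAMC1. They were -0.63 for NID2, -0.60 for LTBP1 and THBS3, and -0.21 for LAMB1 (adjusted p = 0.0472 by limma), on its implied length. Over 16 alternatives, most of them without the correction, the adjusted p of LAMB1 by limma ran from 0.00131 to 0.0756. When the replicate number was fitted as a block beside the correction, LAMB1 did not pass (limma adjusted p = 0.0739). The length and GC correction without a block and without shTPD52 replicate 2, chosen after the data were seen, called 13 members lower and 1 higher. Among those lower were 10 of the original 13, and 20.0% of all genes were called lower.

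Genes that work with the members were read from lists beside the same background (12.7% lower, 5.63% higher). Of 8 tested relatives of the members, such as other laminin, matrilin and netrin genes, none passed (limma, 1 lower at an unadjusted p under 0.05, 0 called by limma-voom). Of 6 tested basement membrane collagen genes, to which nidogen and perlecan bind, none passed either (limma, 0 in either direction at an unadjusted p under 0.05, 0 called by limma-voom), and their median log2 fold change was -0.12. After the length and GC correction 3 of these collagens and 1 of the relatives were higher. Of 21 matrix receptors 4 fell and none rose (median -0.19; 0 higher at an unadjusted p under 0.05 and 0 by limma-voom), and after that correction 3 were lower and 2 higher. ITGA5, the alpha chain of the fibronectin receptor, averaged 7.17 ± 0.278 FPKM in shTPD52 and 11.8 ± 0.496 FPKM in shCtrl (n = 3 each), and fell by 0.68 log2 units (adjusted p = 0.00639 by limma). CD36, a thrombospondin and fatty acid receptor, fell by 0.54 and ITGA8, the alpha chain of a nephronectin and fibronectin receptor, by 0.68.

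Of 19 tested TGF-beta pathway genes, LTBP1 among them, 1 rose and 3 fell (median -0.20), and the correction left 3 called in each direction. SMAD6, an inhibitory SMAD, fell by 0.77 and SMAD3, a signalling SMAD, by 0.74 on the log2 scale. Of 17 matrix proteases and inhibitors 3 rose and 4 fell (median -0.11), and 3 were higher and 2 lower after the correction, or 3 higher and 1 lower under median-ratio scaling. HTRA1, a serine protease that cleaves fibronectin and fibulins, rose by 0.55 and the lysosomal cathepsin gene CTSL by 0.35, while BMP1, the procollagen C-proteinase that also cuts laminin and perlecan, fell by 0.55. Of 13 genes of crosslinking and elastic fibres 5 fell and none rose (median -0.16; 0 higher at an unadjusted p under 0.05 and 0 by limma-voom). After the correction 2 of these were lower and 1 higher, and under median-ratio scaling 2 were lower and 0 higher (1 at an unadjusted p under 0.05). MFAP2, a microfibril protein that binds fibrillins, averaged 4.53 ± 0.479 FPKM in shTPD52 and 7.16 ± 0.746 FPKM in shCtrl (n = 3 each), and fell by 0.61 (limma adjusted p = 0.0176). The collagen-modifying enzyme genes PLOD2 and P4HA2 fell by 0.61 and 0.52, and P4HA2 no longer passed once length and GC content were corrected for (-0.25). That correction put the median of the collagens at 0.23 and the medians of the other lists between -0.09 and 0.07. Without shCtrl replicate 3 the lists together held 0 genes called lower, as against 15 with all libraries and 34 without shTPD52 replicate 2.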

How the data were processed

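Total RNA of NCI-H295R cells was extracted with TRIzol and sequenced as paired-end libraries from a Vazyme kit, per the labels' protocols. The authors deposited 1 table of FPKM per gene and library. GRCh38, featureCounts 2.0.3 and HISAT2 2.2.1 are listed in the submitters' processing notes. Which annotation, strand setting and gene lengths were used is not given in the sources used here. The 3 shTPD52 libraries were compared with the 3 shCtrl libraries. Genes averaging 1 FPKM or more were tested as log2(FPKM + 0.5) with limma 3.58.1 (R 4.3.3, variance trend), with Benjamini-Hochberg adjustment over all 12782 genes and a threshold of 0.05; the procedure was tested on simulated data. TPD52 had a mean just under the filter and was added to the tested genes for its own value only.

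Reads were worked back from the steps between low FPKM values with GENCODE 29 exon lengths, and they gave library totals, the length behind each gene's FPKM and a limma-voom fit. No exact counting interval is given, since most small counts were even, so that reads may not be independent molecules. The length and GC correction removed a loess trend (span 0.3) from each library for the 12707 tested genes with both values. The other alternatives were a pseudocount of 0.1 or 1, no filter or a filter of 5 FPKM, median-ratio scaling, no variance trend, the replicate number as a block, and leaving out each library in turn.

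The members and the gene lists beside them were chosen with earlier results of these data known. Values per library are given for members that passed or had a mean of at least 10 FPKM, and from each list beside them for up to 3 genes that passed with the smallest p. Some values for genes outside this rule (FBN1, FBLN1, FBLN2, EFEMP1, VCAN and CYP17A1) were added after their values were seen. The values of 1 gene in the lists are not reported here. Gene coordinates are those of GENCODE 29 on GRCh38, and promoters come from RefSeq on GRCh38.p14. Genes that share exon bases were found in GENCODE 29.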

Additional observations from a re-analysis of the deposited data

How the results depend on the processing

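With 3 libraries a group, single libraries moved the calls. Leaving out each library in turn gave 87 to 5825 changed genes (2341 with all 6), 0 to 17 members lower (13), 0 to 34 genes lower in the lists beside the members (15) and 0 to 6 higher (4), with the fewest without shCtrl replicate 3 and the most without shTPD52 replicate 2. The log2 fold change of TPD52 ran from -0.70 to -0.60 and passed only without shTPD52 replicate 2. Without a filter, 531 genes changed, 4 members were lower, and the lists held 4 lower and 1 higher. TPD52 stayed at -0.65 without a filter and with a filter of 5 FPKM and did not pass; that filter left 9 list genes lower. Median-ratio scaling left 8 list genes lower, and the fit without a variance trend 2 higher.

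The length and GC correction gave 1 member higher, 9 list genes lower and 13 higher, and -0.50 for TPD52, which did not pass. Together with the replicate block it gave 8 members lower, 1 higher, 9 list genes lower, 11 higher and -0.50 for TPD52. Without shTPD52 replicate 2, chosen after the data were seen, the correction gave 5135 changed genes, 1 member higher, 18 list genes higher and -0.38 for TPD52. The median of the tested members ran from -0.61 to -0.18 over all alternatives.

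Signs turned for 5 members. LAMB3 stood at 0.0029 and LAMC3 at 0.098 after the correction, with and without the block, and LAMC3 at 0.066 without shTPD52 replicate 2 as well. LTBP3 stood at 0.13 after the correction, with and without the block, and at 0.16 without shTPD52 replicate 2 as well. LTBP2 stood at 0.036 with median-ratio scaling, 0.25 after the correction with and without the block, 0.18 without shTPD52 replicate 2 as well, and -0.17 to 0.043 when single libraries were left out, the highest without shTPD52 replicate 1. SPARC ran from -0.056 without shTPD52 replicate 2 to 0.031 when single libraries were left out, with -0.0038 and -0.0080 without shCtrl replicates 1 and 2. The cause of these moves was not tested.

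The labels do not say whether libraries with the same replicate number belong together. Their deviations from the group means correlated at 0.0451, 0.248 and 0.0223 over genes for numbers 1, 2 and 3. Not every library correlated best with its own number, and 3 libraries a group are too few to decide. With the replicate block 3064 genes changed and 14 members were lower, 12 of the 13 among them.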
